A study of Mus musculus with 6 samples.

Results

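Wdfy1 and 2310015K22Rik, a protein-coding gene and a long noncoding RNA gene that lie 0.449 Mb apart on mouse chromosome 1, were 2 of the 709 genes listed by the authors from RNA-seq of tibialis anterior (TA) muscle. Both were chosen because their measured values in these same libraries were higher in NS-DADm than in WT muscles and because they are close together. Their difference between genotypes is therefore given as a description, without a test. TA, a fast-twitch muscle at the front of the lower leg, was taken from 3 WT and 3 NS-DADm mice aged 21 weeks, and 1 library per mouse was sequenced. NS-DADm mice carry whole-body knock-in mutations, among them a single amino acid change in the corepressor NCoR (gene Ncor1) within its deacetylase-activating domain, and the deacetylase HDAC3 is no longer activated in them. The mutations are present in every cell type and throughout development, and no treatment is given for either group. The labels give the strain of both groups as C57BL/6, and the paper names a C57BL/6 J background for the mutant lines and for the controls, WT mice matched by age that are not described as littermates. The question of the study was whether the role of HDAC3 in muscle needs its enzymatic activity.

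The table lists only genes that the authors had called as changed, each with its normalized count per library, that is, the read count divided by a size factor of that library. A gene that is not listed was either not tested or not called, and has no value here. The step between values showed that 1 read was worth 0.905 to 1.21 normalized counts, and 100% of the values in each library were whole multiples of that step within 0.01 reads. The listed genes took 1047804 to 1411470 reads per library, and the sources used here do not give the total depth. By the group means 361 of the listed genes were higher and 348 lower in NS-DADm. Of the skeletal muscle markers 1 of 12 was listed, so that the tissue label could not be checked from levels of the others. This one was titin (Ttn), the giant spring protein of the sarcomere, with 262488 ± 14123 (SD, n = 3) normalized counts in WT and 383186 ± 54399 (SD, n = 3) in NS-DADm.

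WDFY1 is a protein of WD repeats with a FYVE zinc finger. FYVE fingers bind phosphatidylinositol 3-phosphate (PI3P), the lipid that marks early endosomes, the compartments that sort material taken up at the cell surface. WDFY1 has also been described as an adaptor that helps the innate immune receptors TLR3 and TLR4 to recruit TRIF, the signalling protein that leads to type I interferon and NF-κB responses. 2310015K22Rik is annotated as a long intergenic noncoding RNA (lincRNA), a class of spliced transcripts without a known protein product, and the sources used here give it no function. NCoR is a scaffold that nuclear receptors and other transcription factors use to bring HDAC3 to chromatin.

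Wdfy1 (ENSMUSG00000073643.11) lies on the minus strand of chromosome 1 of GRCm38 at chr1:79702262-79776143, and GENCODE M21 gives it 14 transcripts, 9 of them protein coding. The 4 longest transcripts have 12 exons and 4551 bases each. They differ in which copy of exons 4, 5 and 6 they use, since each of these 3 exons is present 2 times in the reference, with the copies 7442 bases apart. The copies are identical, and the 4 transcripts hold 1 and the same sequence. Exon 4, of 55 bases, is shown from both places because a read that falls within it has no single position in the genome. In the 2 sequences the exon is in capitals and the last 15 bases of exon 3, to which both copies are joined in the annotation, are in lower case (GENCODE M21, GRCm38, minus strand). The first copy lies at chr1:79729656-79729710 and the second at chr1:79722214-79722268.
Wdfy1 exon 4 copy a: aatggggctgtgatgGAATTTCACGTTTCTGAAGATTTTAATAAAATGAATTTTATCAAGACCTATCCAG
Wdfy1 exon 4 copy b: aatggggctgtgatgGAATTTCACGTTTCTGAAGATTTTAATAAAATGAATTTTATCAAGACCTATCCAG

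Exons 5 and 6, of 151 and 113 bases, are copied in the same way, so that 319 bases or 7.01% of the transcript have a second identical place in the gene. Of the 4502 windows of 50 bases in the transcript, 270 (6.00%) lay wholly inside the copied exons. A further 15 windows (0.333%) occurred in transcripts of 17 other genes. The sources used here do not say how the aligner and counter treated reads with more than 1 position, and the effect on the Wdfy1 counts was not tested. The other 9 exons of these transcripts are annotated once.

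**Figure D1:**
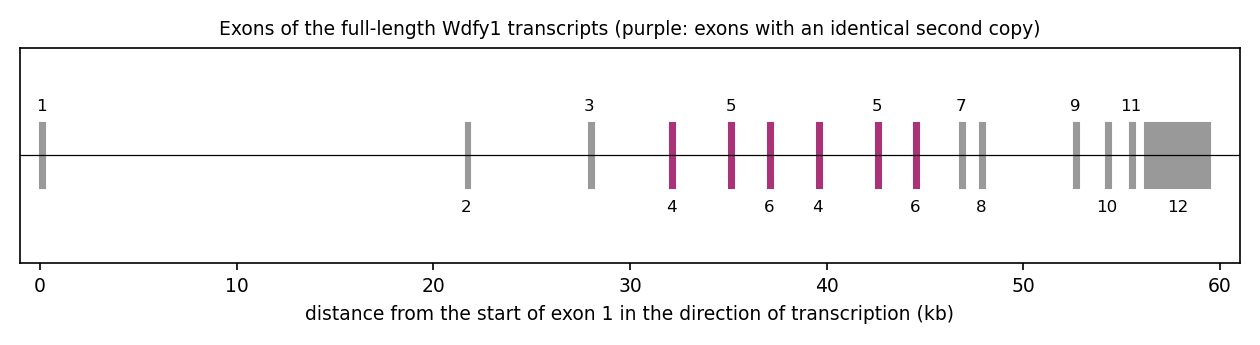
Exons of the 4 full-length Wdfy1 transcripts, drawn to scale along the gene, with the distance from the start of exon 1 in kb on the x axis and exon numbers beside the boxes. Purple boxes are the 3 exons that have an identical second copy 7442 bases further on, and grey boxes are the 9 exons that occur once.

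2310015K22Rik (ENSMUSG00000101257.1) lies on the plus strand at chr1:80225044-80228792 of GRCm38. GENCODE M21 gives it 1 transcript of 1461 bases in 2 exons of 128 and 1333 bases, and none of its 1412 windows of 50 bases occurred in a transcript of another gene. RefSeq (GRCm38.p6) draws a longer gene, chr1:80207934-80229463, which starts 17.1 kb upstream of the GENCODE model and runs opposite to Fam124b over 10540 bases. The promoter table held 1 of the members, 2310015K22Rik, and not Wdfy1. The RefSeq window, from 250 bases before to 50 bases after that upstream start (chr1:80207684-80207983, plus strand), is shown because the nuclear receptors that NCoR serves act on promoters and enhancers, with matches to the motifs searched in capitals.
2310015K22Rik promoter window: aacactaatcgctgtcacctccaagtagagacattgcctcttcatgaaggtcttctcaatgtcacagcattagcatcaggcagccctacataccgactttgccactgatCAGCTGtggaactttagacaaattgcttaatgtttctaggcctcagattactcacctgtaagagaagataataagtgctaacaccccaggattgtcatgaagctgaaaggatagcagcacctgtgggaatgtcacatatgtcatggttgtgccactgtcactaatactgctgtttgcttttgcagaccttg

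The capitals mark 1 match to CAGCTG, the E-box form bound by myogenic factors such as MyoD, at position -141 counted from the RefSeq start. This motif reads the same on both strands and was present in 16.3% of the 32851 promoter windows of the table. AGGTCA, the half-site of many nuclear receptors, was not in the window on either strand and was present in 16.3% of all windows. The GC box GGGCGG, which 35.7% of all windows held, was not in this window. The TATA box form TATAAA, held by 13.6% of windows, and the CCAAT box, held by 37.4%, were also not in it on either strand. A match is a description of these letters and not a measured binding site.

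Wdfy1 was near 100 normalized counts in each WT library and above 300 in each NS-DADm library. Its normalized counts were 92.4, 102.9 and 98.0 in WT replicates 1, 2 and 3. They were 387.6, 401.5 and 330.7 in NS-DADm replicates 1, 2 and 3. The 3 WT libraries were close together, NS-DADm replicate 3 was the lowest of its group, and the groups did not overlap. The means were 97.7 ± 5.25 (SD, n = 3) in WT and 373 ± 37.5 (SD, n = 3) in NS-DADm, a ratio of 3.82. The log2 difference fitted with limma on log2(normalized count + 1) was 1.92, with a standard error of 0.14. The lowest NS-DADm library was 3.22 times the highest WT library.

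2310015K22Rik had the larger ratio between genotypes and the wider spread within them. Its normalized counts were 59.8, 49.2 and 34.6 in WT replicates 1, 2 and 3. They were 295.7, 268.9 and 208.8 in NS-DADm replicates 1, 2 and 3. The groups did not overlap, and NS-DADm replicate 3 was again the lowest of its group. The means were 47.8 ± 12.6 (SD, n = 3) in WT and 258 ± 44.5 (SD, n = 3) in NS-DADm, a ratio of 5.39. The fitted log2 difference was 2.43, with a standard error of 0.22. The lowest NS-DADm library was 3.49 times the highest WT library. For both members all NS-DADm libraries were thus above all WT libraries. The same held for 351 of the 709 genes (49.5%), and since the members and the table were selected on this contrast nothing is read from that count.

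**Figure D2:**
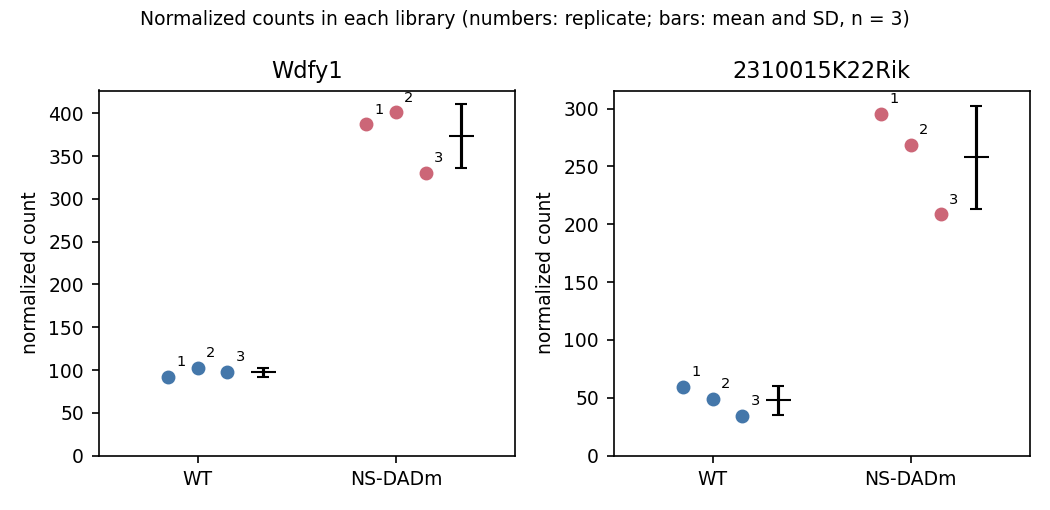
Normalized counts of Wdfy1 (left) and 2310015K22Rik (right) in each library, with the replicate number beside each point and black bars for the mean and SD of 3 libraries. WT values lie between 92.4 and 102.9 for Wdfy1 and between 34.6 and 59.8 for 2310015K22Rik, below every NS-DADm value of the same gene, and NS-DADm replicate 3 is the lowest NS-DADm library in both panels.

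The values rest on modest numbers of reads. Wdfy1 had 102, 113 and 102 reads in WT and 367, 418 and 274 in NS-DADm. 2310015K22Rik had 66, 54 and 36 reads in WT and 280, 280 and 173 in NS-DADm. For Wdfy1 the coefficient of variation between WT libraries was 5.38%, under the 9.73% that Poisson counting error alone gives at this depth, and between NS-DADm libraries it was 10.0% against 5.35%. For 2310015K22Rik it was 26.4% against 13.9% in WT and 17.3% against 6.42% in NS-DADm. The lincRNA therefore varied more between mice than Wdfy1 did in both genotypes, by 1.73-fold from the lowest to the highest WT library and by 1.42-fold in NS-DADm. These counting errors cover reads only, not the steps before sequencing.

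The balance between the pair was also compared within each library, which removes the size factor. The ratio of their normalized counts, 2310015K22Rik to Wdfy1 and not per length, was 0.647, 0.478 and 0.353 in the WT libraries. It was 0.763, 0.670 and 0.631 in the NS-DADm libraries. The groups overlapped, since WT replicate 1 was above NS-DADm replicate 3. The mean ratio was 0.493 ± 0.148 (SD, n = 3) in WT and 0.688 ± 0.068 (SD, n = 3) in NS-DADm. On the log2 scale the difference was 0.51, against an SD between replicates of 0.32.

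Levels of the pair were compared per length. GENCODE exons cover 6488 bases of Wdfy1 and 1461 bases of 2310015K22Rik. The level per kb of exon was 15.1 ± 0.81 (SD, n = 3) normalized counts for Wdfy1 and 32.7 ± 8.66 (SD, n = 3) for 2310015K22Rik in WT. In NS-DADm it was 57.5 ± 5.78 (SD, n = 3) for Wdfy1 and 176 ± 30.5 (SD, n = 3) for 2310015K22Rik. The level per kb of the lincRNA was above that of Wdfy1 in each of the 6 libraries, by 1.57-fold in WT replicate 3 to 3.39-fold in NS-DADm replicate 1. With the 4551 bases of the longest Wdfy1 transcript in place of all its exons, Wdfy1 had 21.5 normalized counts per kb in WT and 82.0 in NS-DADm, both still below 2310015K22Rik. In whole muscle, more cells that express a gene and more RNA per cell cannot be told apart.

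Among the 709 listed genes 2310015K22Rik was in place 15 and Wdfy1 in place 27 when ordered by the ratio of NS-DADm to WT means. Just above 2310015K22Rik was Elf3, an epithelial transcription factor, with a ratio of 5.41, and just below it the lincRNA Gm5532 with 5.26. Just above Wdfy1 was Shroom1, of a family of actin-binding proteins, with a ratio of 3.96, and just below it Zfp469 with 3.81. The median ratio of the 361 higher genes was 1.62. By mean normalized count over the 6 libraries, which follows gene length as well as level, Wdfy1 was in place 430 and 2310015K22Rik in place 485 of 709. Elf3 and Shroom1 had WT means of 4.61 and 6.48 normalized counts, so the members had more reads behind their ratios than these neighbours in rank. Of the 33 listed genes annotated as lincRNAs, 27 were higher in NS-DADm, against 361 of all 709 listed genes. All were listed because the authors had called them on this contrast, so nothing is read from this count about lincRNAs. Among these 33 lincRNAs 2310015K22Rik was second by ratio after Gm12514 (6.18) and in place 8 by mean normalized count.

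**Figure D3:**
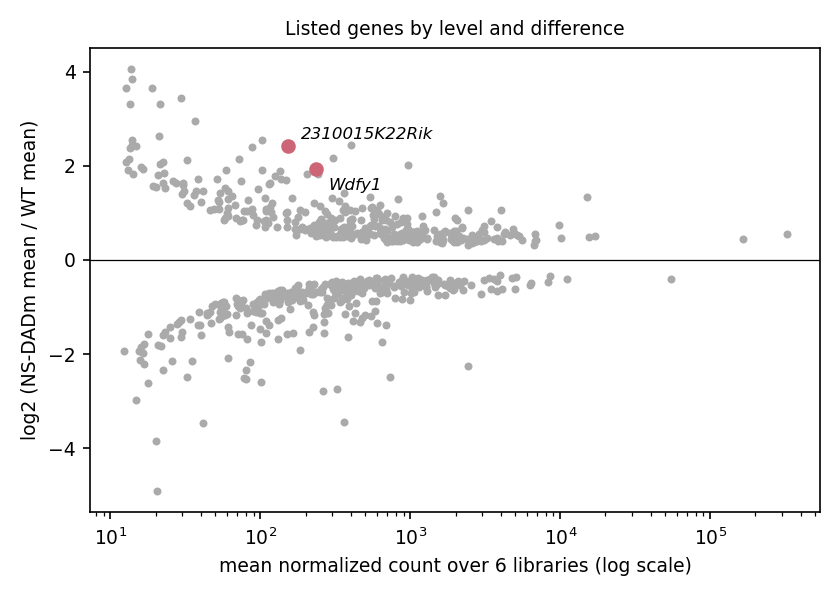
The log2 of NS-DADm over WT means (y axis) against the mean normalized count over 6 libraries (x axis, log scale) for the 709 listed genes, with each point a gene and the members in red. Wdfy1 (ratio 3.82) and 2310015K22Rik (ratio 5.39) lie in the upper part of the plot, and the largest ratios belong to genes with few reads.

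On chromosome 1 no other listed gene lay near the pair. Between the end of Wdfy1 and the start of 2310015K22Rik are 448900 bases with 8 annotated genes, none of them listed. The 2 protein-coding genes there are Serpine2, a secreted inhibitor of serine proteases, and Fam124b, which ends 6571 bases before 2310015K22Rik on the other strand. Mrpl44, a protein of the mitochondrial ribosome, lies on the opposite strand and overlaps the annotated 5′ end of Wdfy1 by 126 bases, and Gm10555 lies opposite to Wdfy1 within the gene. Neither was listed. The sources used here do not say whether the counting used strand, so reads in these overlaps cannot be assigned to one gene with certainty. Cul3, the scaffold of a family of ubiquitin ligases, lies 36131 bases beyond 2310015K22Rik and was not listed.

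**Figure D4:**
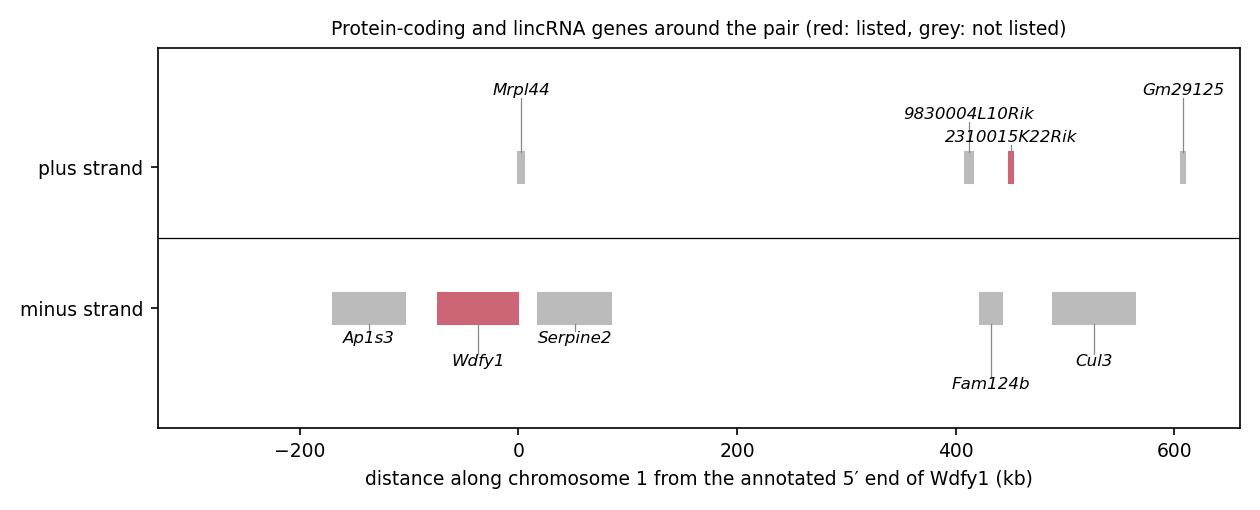
Protein-coding and lincRNA genes within 200 kb of either member, by strand, along chromosome 1 in kb from the annotated 5′ end of Wdfy1, with listed genes in red and genes that were not listed in grey. The red boxes are Wdfy1 and 2310015K22Rik, and the 7 grey neighbours that code for proteins or lincRNAs on both sides and between them have no value in the table.

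Within 1 Mb of either member GENCODE M21 holds 36 other genes, 11 of them protein coding, and 0 were listed. Within 5 Mb it holds 197, 86 of them protein coding, and 1 was listed. Over the whole annotation 2.93% of protein-coding genes were listed, and nothing is read from these counts. This was Dnpep, aspartyl aminopeptidase, 4.38 Mb from Wdfy1 at chr1:75307896-75317990. Its normalized counts were 521.6, 555.3 and 566.6 in WT and 374.9, 306.4 and 360.9 in NS-DADm. It was thus lower in NS-DADm, with a ratio of 0.634, opposite to the pair. The nearest listed gene on the other side was Ramp1, a receptor activity-modifying protein that forms the receptor for the peptide CGRP, 10.95 Mb from 2310015K22Rik with a ratio of 1.46. Over the chromosome 56 genes were listed, 34 higher and 22 lower.

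**Figure D5:**
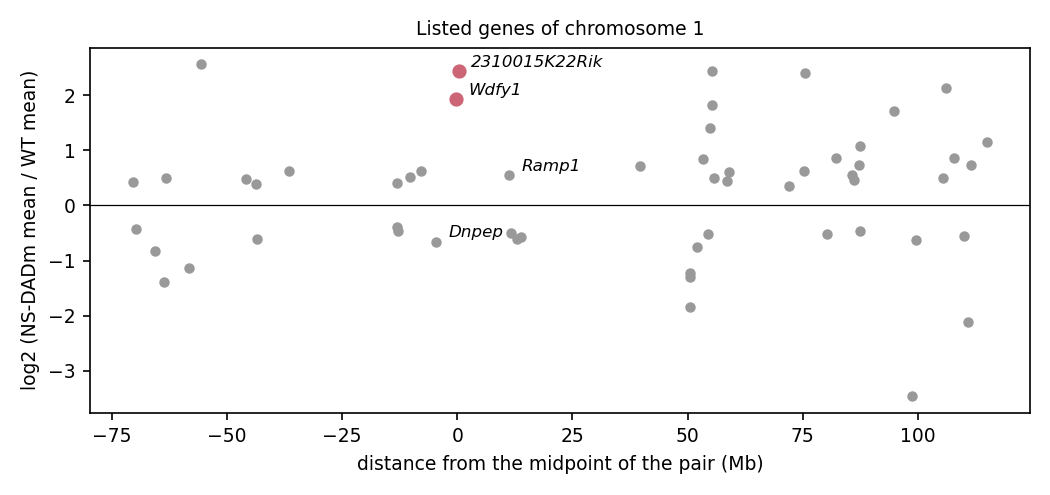
The log2 of NS-DADm over WT means (y axis) for the 56 listed genes of chromosome 1 against the distance of each gene's centre from the midpoint of the pair in Mb (x axis), with the members in red. Dnpep, with a ratio of 0.634, is the nearest other listed gene, and Ramp1, with 1.46, is the nearest on the far side.

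Of the 50 listed genes with a position and a ratio of 3 or more, 2 neighbouring pairs lay within 1 Mb of each other, with both limits set after the values were seen. One was Wdfy1 with 2310015K22Rik, whose place here follows from the choice of the pair for its rise and closeness. The other was Elf3 with Lmod1, a leiomodin that nucleates actin in smooth muscle, 0.066 Mb apart on the same chromosome, with ratios of 5.41 and 3.55. Only listed genes can enter this count.

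The genes whose pattern over the 6 libraries was most like that of each member were found by the root mean square (RMS) difference of log2(normalized count + 1), after subtracting each gene's own WT mean. For Wdfy1 the 5 nearest of 708 other genes were Shroom1 (RMS difference 0.12), Lyplal1 (0.17), Hsbp1l1 (0.17), Ush1c (0.18) and Asf1b (0.21). Ush1c encodes harmonin, a scaffold protein of sensory hair cells, and Asf1b is a histone chaperone. Their ratios of NS-DADm to WT were 3.57 to 4.40, and their WT means were 4.95 to 24.6 normalized counts. For 2310015K22Rik the nearest were the lincRNA Gm12514 (0.14), Col9a1 (0.23), Gng2 (0.30), Mpv17l (0.36) and Zfp385a (0.38). Col9a1 encodes a chain of type IX collagen and Gng2 a gamma subunit of G proteins, with WT means of 29.8 and 112 and NS-DADm means of 175 and 502 normalized counts. The members were not each other's nearest, with an RMS difference of 0.44, which put 2310015K22Rik in place 33 for Wdfy1 and Wdfy1 in place 11 for 2310015K22Rik. All points share the same 6 libraries, and the measure follows mostly the size of the difference between genotypes.

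Few genes with which WDFY1 acts had a value in the table, which lists 2.93% of the protein-coding genes of GENCODE M21 (644 of 21951). Of 49 genes of FYVE proteins and of the enzymes and effectors of PI3P on endosomes, 1 was listed, Wdfy1 itself. Its relatives Wdfy2, Wdfy3 and Wdfy4, the PI3-kinase Pik3c3 that makes PI3P, the tether Eea1 and the kinase Pikfyve were not listed. Of 30 genes of TLR3 and TLR4 signalling through TRIF and its targets 0 were listed, among them Tlr3, Tlr4, Ticam1, which encodes TRIF, and the interferon-responsive genes Ifit1 and Isg15. Read against 2.93%, neither count is a result about these groups, and the genes that are not listed have no values here. Other interferon-induced genes were listed in both directions, named here after their values were seen. They are not a complete set, and no direction of an interferon response is read from them. Ifit3b, of the Ifit family, had 67.3 ± 7.59 (SD, n = 3) normalized counts in WT and 26.6 ± 5.29 (SD, n = 3) in NS-DADm. Usp18, which removes the ubiquitin-like protein ISG15, had 19.7 ± 2.08 (SD, n = 3) in WT and 45.3 ± 1.81 (SD, n = 3) in NS-DADm. For both the groups did not overlap, while for the guanylate-binding protein Gbp4 (71.5, 89.2 and 51.9 in WT and 172.1, 82.6 and 183.5 in NS-DADm) they did.

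Of the corepressor complex itself, Ncor1 and Hdac3 were not listed, and a point mutation changes the protein, so that transcript levels do not check the genotype. A listed subunit was Tbl1xr1, a WD-repeat protein of the complex that helps exchange corepressors for coactivators. Its normalized counts were 600.3, 580.8 and 704.9 in WT and 1010.7, 1294.7 and 999.4 in NS-DADm, a ratio of 1.75. Its groups did not overlap, as for all but 15 of the 709 listed genes.

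Markers of the other cell types that a whole muscle holds were counted in the same way. Of 49 markers of 9 cell types, skeletal muscle included, 2 were listed. One was Ttn. The other was Mrc1, the mannose receptor of resident macrophages, the 1 listed of 8 macrophage markers, with normalized counts of 125.9, 120.2 and 144.1 in WT and 275.6, 295.8 and 224.5 in NS-DADm. NS-DADm replicate 3 was the lowest of its group for Mrc1 as for both members, and the ratio of the means was 2.04, below those of the members. The higher genes Lpl, Acadm and Aqp4 also had replicate 3 as their lowest NS-DADm library, so nothing is read from this order. Of the markers of endothelial cells, fibroblasts, satellite cells, red blood cells, adipocytes, Schwann cells and B or plasma cells 0 were listed, but the list of B and plasma cell markers held 5 genes and no antibody chain other than Ighm. Antibody and B-lineage genes outside it were listed, named here after their values were seen. The constant region of the antibody light chain kappa, Igkc, had 7.24, 3.64 and 0.96 normalized counts in WT and 31.7, 24.0 and 61.6 in NS-DADm. That of the IgA heavy chain, Igha, had 5.43, 0 and 0 in WT, from 6, 0 and 0 reads, and 19.0, 18.2 and 41.0 in NS-DADm. Blnk, an adaptor of B cell receptor signalling, had 24.4, 25.5 and 16.3 in WT and 63.4, 65.3 and 54.3 in NS-DADm. None of the 3 overlapped between groups. Only 15 of the 709 listed genes overlapped, so nothing is read from this. NS-DADm replicate 3 was the highest of its group for Igkc and Igha, and the lowest for Blnk and for both members. Nothing is read from these orders either. The part of macrophages or B-lineage cells in the values of Wdfy1 and 2310015K22Rik was not tested.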

How the data were processed

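RNA-seq was measured in TA muscle of 3 WT and 3 NS-DADm mice, grouped by the sample labels. Different aligners are named for GRCm38, STAR in the paper's methods and TopHat2 2.1.0 in the submitters' processing notes, beside HTSeq and DESeq2 1.8.2, so the aligner is unsettled. The authors' deposited normalized counts are a signal that is never negative, made by dividing each read count by its library's size factor. Also deposited were the authors' means, log2 fold changes, ratio, p-values and adjusted p-values, which hold their own comparison and were not used.

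Group means, SDs and ratios were computed with pandas 2.3.3. log2(normalized count + 1) was fitted over all 709 genes by limma 3.58.1 with a mean-variance trend (R 4.3.3), a step tested on simulated data. Fold changes on this scale slightly understate low genes. The step of each library gave its reads. Positions came from GENCODE M21, to which 706 identifiers matched without version. Named genes were the members, listed genes of the gene lists, listed genes within 5 Mb, the 5 most alike and the neighbours in rank, and other names were chosen with values in view. The members and gene lists were chosen with earlier results of these data known. Libraries were taken as 1 per mouse, and their spread includes technical error. Alternatives were pseudocounts, other normalizations, a filter, a replicate block and leaving out each library.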

Additional observations from a re-analysis of the deposited data

How the results depend on the processing

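Wdfy1 and 2310015K22Rik were higher in NS-DADm under all 11 alternatives run for each. Both were chosen for this direction and their groups do not overlap, so nothing is read from its staying the same. With quantile normalization the log2 difference of Wdfy1 was 2.06, against 1.92, a move larger than the SD between replicates of 0.12, and the cause was not tested. Without each library in turn the values were 1.86 to 2.003 for Wdfy1, 2.21 to 2.60 for 2310015K22Rik, and 0.29 to 0.72 for the log2 difference of their ratio, whose lowest value came without WT replicate 3 and its highest without WT replicate 1. The number of genes higher in every NS-DADm library was 308 to 356 under its 9 alternatives, against 351. The 308 came with the filter of a mean of at least 50 normalized counts, which leaves fewer genes to count. The lowest value over all 709 genes was 325, with quantile normalization. The limma count of higher genes at an adjusted p under 0.05 was 361 of the 709 listed, and 318 to 361 under 12 alternatives. The 318 came with the same filter, and the lowest count over all 709 genes was 335, with quantile normalization. Every listed gene had already been called by the authors on these libraries, so neither count says anything of the members. With the replicate number as a block the log2 differences were again 1.92 and 2.43, which a block cannot change in this balanced design. The correlations of same-numbered libraries were -0.15, 0.15 and 0.05, which gives no pairing of mice by number. The planned edgeR test on the recovered reads was not run. With 102 to 113 reads for Wdfy1 and 36 to 66 for 2310015K22Rik in WT libraries, counting error limits the precision of the ratios.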

Other observations

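Of 10 genes known to carry variants between C57BL/6 substrains or colonies, 2 were listed, against 2.93% of all annotated protein-coding genes, and both were lower in NS-DADm. The list was made with earlier results of these data known, so nothing is read from this count. The other genes of the list, among them Nnt and Fgfbp3, were not listed by the authors and have no value here. The paper names C57BL/6 J as the background of the mutant lines and of the controls. Ide, the insulin-degrading enzyme, on chromosome 19, lies in a segment whose copy number is known as background to vary within C57BL/6J stock. Its normalized counts were 3884, 3682 and 3567 in WT and 2290, 2202 and 2223 in NS-DADm. The WT mean was 1.66 times the NS-DADm mean, and the NS-DADm libraries had a mean of 2238 ± 45.5 (SD, n = 3). Cyfip2, a subunit of the WAVE complex that regulates actin, carries a missense variant in C57BL/6N mice and lies on chromosome 11, as does Ncor1. Its normalized counts were 795.0, 347.7 and 548.4 in WT and 78.1, 69.2 and 103.8 in NS-DADm, a ratio of 0.148. The substrain of each mouse and the copy number of the Wdfy1 exons were not measured here, and any part of either in the values of Wdfy1 and 2310015K22Rik was not tested.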
